A study of Mus musculus with 5 samples.

Results

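The genes described here encode receptors for monoamines and neuropeptides in retrogradely labeled neurons of mouse S1. The list holds 35 genes, taken by name, of 19938 genes that the arrays name, and 31 of the 35 have a probe set whose annotation gives 1 symbol. The remaining 4, *Adra1a*, *Adra1d*, *Adra2a*, and *Adrb1*, are adrenoceptor genes and were not analysed here. The rule for the list was a set of gene names, with no threshold on a value.

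Monoamine and neuropeptide receptors are mostly G protein-coupled receptors, which carry slow modulatory signals rather than fast transmission. Receptors that couple to Gi/o lower cyclic AMP and open potassium channels, those that couple to Gs raise cyclic AMP, and those that couple to Gq activate phospholipase C. Serotonin, dopamine, and noradrenaline reach the cortex through axons from the brainstem and midbrain, orexin comes from the hypothalamus, and peptides such as somatostatin and neuropeptide Y are released by cortical interneurons.

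RNA was taken from 5 groups of S1 neurons in ICR mice at PD24, association neurons in L6b, L5, and L2/3 and callosal neurons in L5 and L2/3. Association neurons carried Green RetroBeads from an injection into M1 of the same hemisphere, and callosal neurons carried them from cS1. By the study's methods, all of these mice had been electroporated in utero with a tdTomato plasmid, which marked L2/3 neurons of S1 and let the red axon terminals guide the injections. Each group was a pool of about 1000 laser-microdissected cells on 1 array of the type GeneChip Mouse Gene 1.0 ST, and how many mice made up a pool was not stated in the labels or methods. There is therefore no replicate check, no p-value is given, and every value describes these 5 arrays. In such pools, fewer cells of a type and less RNA per cell cannot be told apart.

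Each value below is the deposited log2 signal of a gene's probe set minus the median of all 35556 probe sets on the same array, called the relative signal, so that 0 is the array median and a difference of 1 is 2-fold. Probe sets differ in how brightly they report a given amount of RNA, so values of 1 gene are set against each other across arrays and not against those of another gene. The medians ranged from 5.71 to 5.80, and arrays correlated at 0.918 to 0.938 over all probe sets. As a check of the labels, L6b/SP marker genes had a median relative signal of 1.70 in association L6b, against 0.31 to 0.40 in the other arrays, and L2/3 marker genes had medians of 1.96 in association L2/3 and 1.58 in callosal L2/3, against 0.42 to 0.93 elsewhere. L5 marker genes did not separate the layers by their median, which was 1.39 in association L5 and 1.12 in callosal L5, against 0.43 in callosal L2/3, 1.25 in association L2/3, and 0.53 in L6b. All 8 GABAergic marker genes with a probe set reached the median of some array. Since 63.4% of all named genes did so, this count alone does not show interneuron RNA in the pools. Some of these genes, for which projection neurons are not known, lay far above the median. *Sst* had 2.45 to 4.66 over the 5 arrays, and *Pvalb* had -1.38 in L6b and 2.26 to 4.57 in the others. The summed signal of these 8 genes, in multiples of the array median, was 16.7 in L6b, 48.6 in L5, and 62.7 in L2/3 of association neurons, and 63.8 in L5 and 39.2 in L2/3 of callosal neurons. That of 7 oligodendrocyte genes was 52.7, 45.2, 10.8, 24.5, and 11.3 in the same order. The female-specific RNA *Xist* had a relative signal of 1.47 to 2.55 in the association arrays, against -1.48 and -0.88 in callosal L5 and L2/3, and the Y-linked *Eif2s3y* stood at -2.61 to -2.46 in the association arrays, against 2.45 and 2.90. Projection and this difference between the animals cannot be told apart.

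Of the 31 receptors, 20 had a signal at or above the median of 1 array or more and 13 reached it in all 5. Over all named genes, 63.4% did so in 1 array or more and 49.0% in all 5. The count by array was 14 for association L5, 18 for L6b, and 15 for each other array, where 11133 to 11187 of the 19938 named genes did so per array. The 20 are *Htr1a*, *Htr1b*, *Htr1f*, *Htr2a*, *Htr4*, *Htr5a*, *Htr6*, *Drd1*, *Drd2*, *Drd4*, *Drd5*, *Adra2c*, *Hcrtr1*, *Npy1r*, *Oprl1*, *Oprm1*, *Sstr2*, *Sstr3*, *Sstr4*, and *Crhr1*. Just inside lay *Htr6*, with a best value of 0.03, and *Htr4* and *Oprm1*, with 0.09 each. Just outside lay *Sstr1* at -0.01, *Rxfp1* at -0.03, and *Htr1d* at -0.04. The other 8, which were below the median in all 5 arrays, were *Htr2c*, *Htr7*, *Adra1b*, *Hcrtr2*, *Npy2r*, *Oprk1*, *Ntsr1*, and *Trhr*. A signal below the array median is dim, which does not show that the gene is not expressed.

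**Figure D1:**
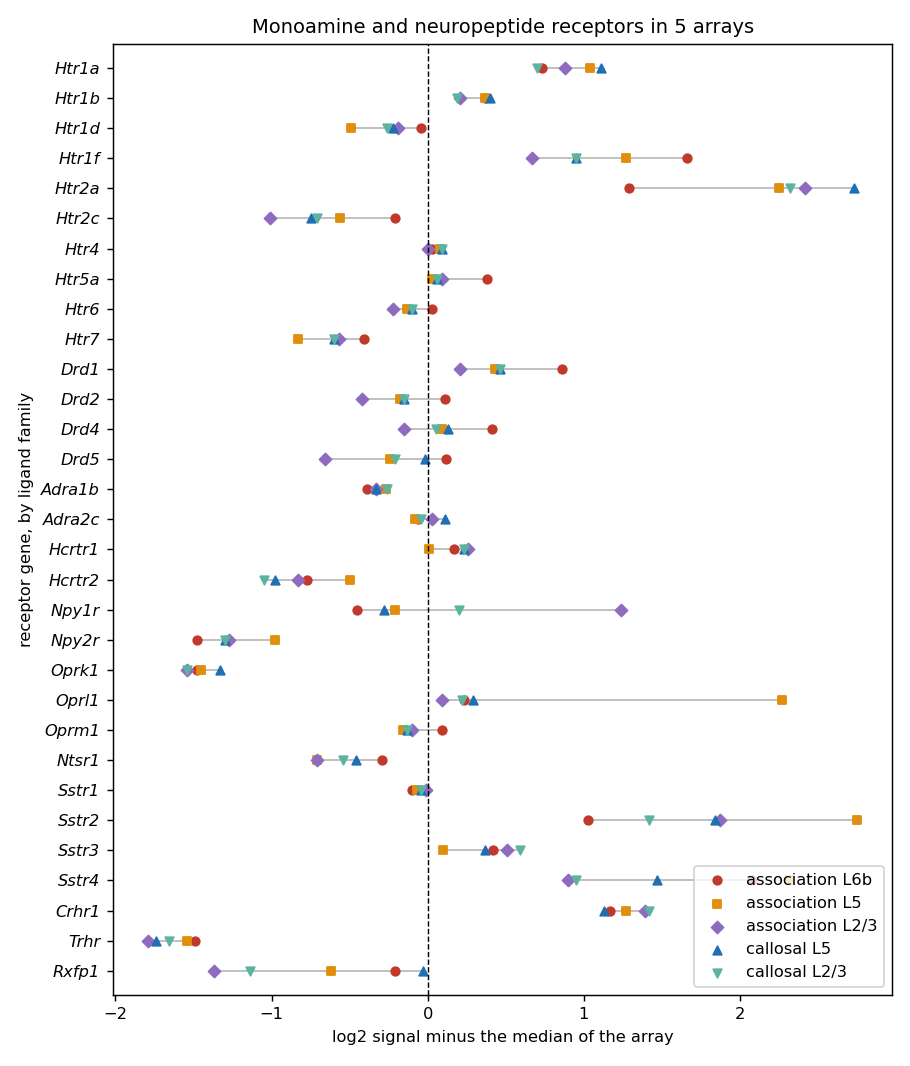
Relative log2 signal (horizontal axis, 0 is the array median) of the 31 receptor genes with a probe set (vertical axis, by ligand family), 1 point per array and no error bars, since each group is 1 array. Most genes span less than 1 log2, and *Oprl1*, *Sstr2*, *Npy1r*, *Htr2a*, *Sstr4*, and *Rxfp1* span more.

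Most receptors differed little between the arrays. The highest and lowest arrays were at least 2-fold apart for 5 of the 20 receptors that reached the median, a share close to the 29.5% of the 12632 genes that did so, and for *Rxfp1* among the 11 that stayed below it. The median span from the lowest to the highest array was 0.45 over all 31 receptors and 0.36 over all named genes. The 5 were *Oprl1*, *Sstr2*, *Npy1r*, *Htr2a*, and *Sstr4*, and they did not share a pattern. *Oprl1* and *Sstr2* were highest in association L5, *Npy1r* was highest in association L2/3, *Htr2a* was lowest in association L6b, and *Sstr4* was higher in the association arrays of L6b and L5 than in the others. Without association L5, 3 of the 5 remained, *Npy1r*, *Htr2a*, and *Sstr4*. Many other receptors gave identical deposited values on several arrays, in 10 of 31 receptors on at least 3 arrays, against 46.7% of all named genes.

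**Figure D2:**
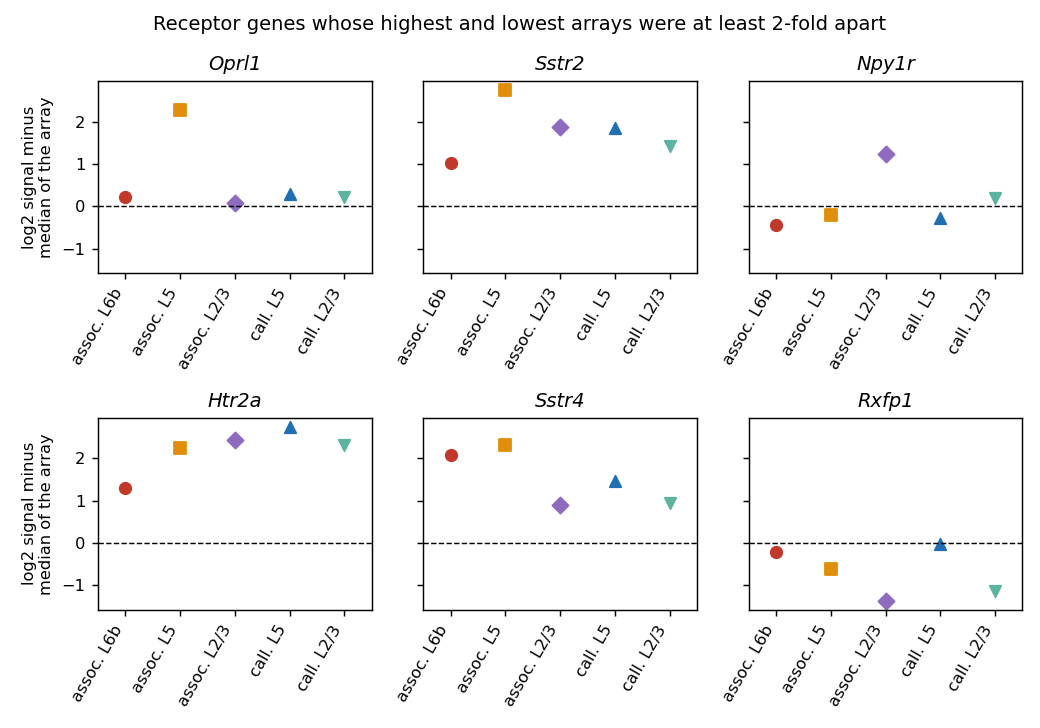
Relative log2 signal (vertical axis) in the 5 arrays (horizontal axis) of the 6 receptor genes whose highest and lowest arrays were at least 2-fold apart, 1 point per array, with the dashed line at the array median. *Oprl1* stands at 2.27 in association L5 and between 0.09 and 0.29 elsewhere, and *Rxfp1* stays below 0 in every array.

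*Oprl1* encodes the nociceptin receptor, a member of the opioid receptor family that couples to Gi/o. Its relative signal was 0.23 in L6b, 2.27 in L5, and 0.09 in L2/3 of association neurons, and 0.29 in L5 and 0.22 in L2/3 of callosal neurons. Association L5 stood alone, 3.94-fold above the next array, and the other 4 arrays lay within 0.20 log2 of each other. The deposited values were 8.04 in association L5 and 5.80 to 6.03 in the others. *Oprl1* was the only receptor at least 2-fold higher in association L5 than in each other array, which 1.31% of the compared genes were. A span as large as its 2.18 log2 was found in 7.98% of them. Some marker genes were also highest in association L5. The oligodendrocyte gene *Mag* had 3.96 there and -0.37 to 1.47 in the others, and *Mobp* had 3.83 there and 0.63 to 3.29. *Mog* and *Ugt8a* were instead highest in association L6b, at 4.12 and 3.04. The oligodendrocyte sum was 45.2 in association L5 and 52.7 in association L6b. The L5 marker gene *Rbp4* had 3.76 in association L5 and 1.12 in callosal L5. *Fezf2*, with 1.39 and 2.04, and *Etv1*, with 1.65 and 2.19, were instead higher in callosal L5. The L5 marker sum, of which *Pcp4* makes up most, was 87.6 in association L5 and 86.2 in callosal L5. The part of either cell content in the *Oprl1* result was not tested. The mu receptor gene *Oprm1* had a relative signal of 0.09 in L6b, -0.16 in L5, and -0.10 in L2/3 of association neurons, and -0.13 in L5 and -0.13 in L2/3 of callosal neurons. *Oprk1*, the kappa receptor gene, was at -1.54 to -1.33 in all 5 arrays. Both lacked the high value in association L5.

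RefSeq lists 3 start windows for *Oprl1* (GRCm38.p6), from 250 bases before to 50 after a start, and the most upstream, chr2:181714766-181715065 on the plus strand, is shown here because this gene had the largest span. Capitals mark a match to TATAAA on either strand, the letters of a TATA box, which 13.6% of 32851 such windows hold and the other 2 windows of *Oprl1* do not. The match here is on the minus strand, reads TTTATA, and lies well upstream of the start. Whether it works as a TATA box was not tested.
Oprl1: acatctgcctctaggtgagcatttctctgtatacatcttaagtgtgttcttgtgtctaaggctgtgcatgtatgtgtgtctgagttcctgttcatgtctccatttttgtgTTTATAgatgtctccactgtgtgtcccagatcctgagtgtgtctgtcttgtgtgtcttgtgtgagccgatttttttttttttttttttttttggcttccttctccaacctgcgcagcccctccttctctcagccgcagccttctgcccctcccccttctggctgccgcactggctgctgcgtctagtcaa

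The 4 listed somatostatin receptors, all of which couple to Gi/o, did not share a pattern. *Sstr2* had a relative signal of 1.03 in L6b, 2.75 in L5, and 1.87 in L2/3 of association neurons, and 1.84 in L5 and 1.42 in L2/3 of callosal neurons. It was highest in association L5, 1.84-fold above the next array, and lowest in L6b, 1.31-fold below the next. L6b also had the lowest GABAergic sum, 16.7 against 39.2 to 63.8, whose part in this was not tested. *Sstr4* had 2.08 in L6b, 2.32 in L5, and 0.90 in L2/3 of association neurons, and 1.47 in L5 and 0.95 in L2/3 of callosal neurons. Both L2/3 arrays were low and nearly equal, callosal L5 was between, and the 2 deep association arrays were high. *Sstr2* and *Sstr4* thus shared their highest array but lay on opposite sides in L6b, where the L6b value less the average over the remaining 4, called L6b enrichment, was -0.94 for *Sstr2* and 0.67 for *Sstr4*. The arrays in which *Sstr4* was high were also those with the higher oligodendrocyte sums, 52.7 and 45.2 in association L6b and L5, against 10.8 to 24.5, and the part of such cells in the result was not tested. *Sstr3*, known from neuronal cilia, had 0.42 in L6b, 0.10 in L5, and 0.51 in L2/3 of association neurons, and 0.37 in L5 and 0.59 in L2/3 of callosal neurons, and so was lowest where *Sstr2* and *Sstr4* were highest. *Sstr1* had the identical deposited value of 5.70 on all 5 arrays.

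The start windows of *Sstr2* and *Sstr4* are shown because these receptors of 1 ligand had opposite signs in L6b. *Sstr2* lies at chr11:113619077-113619376 and *Sstr4* at chr2:148395127-148395426 (RefSeq, GRCm38.p6, both on the plus strand). Capitals mark matches on either strand to TGACGTCA, the palindrome of the cAMP response element, and to GGGCGG, the GC box, which do not overlap here. In all 32851 windows, the first is found in 1.79% and the second in 35.7%.
Sstr2: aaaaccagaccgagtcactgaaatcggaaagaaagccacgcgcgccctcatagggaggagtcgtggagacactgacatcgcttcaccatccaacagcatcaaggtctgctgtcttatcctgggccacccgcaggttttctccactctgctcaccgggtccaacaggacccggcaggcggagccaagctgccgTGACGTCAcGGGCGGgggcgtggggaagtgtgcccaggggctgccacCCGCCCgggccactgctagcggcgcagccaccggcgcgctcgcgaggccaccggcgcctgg
Sstr4: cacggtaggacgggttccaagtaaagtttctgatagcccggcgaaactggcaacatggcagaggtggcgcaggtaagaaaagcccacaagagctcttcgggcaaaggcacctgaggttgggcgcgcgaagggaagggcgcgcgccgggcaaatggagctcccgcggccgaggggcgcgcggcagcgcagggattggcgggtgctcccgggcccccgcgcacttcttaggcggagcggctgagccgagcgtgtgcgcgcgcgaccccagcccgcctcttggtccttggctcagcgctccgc
The *Sstr2* window holds 1 match to TGACGTCA and 2 to GGGCGG, and the *Sstr4* window holds none of these letters or of TATAAA. Both are rich in CpG, with 27 and 35 of these dinucleotides, against a median of 7 over all windows. Of the 26 measured receptors whose windows were read, counting the first window of each, *Sstr2* was the only 1 with TGACGTCA, and 12 held GGGCGG. No window was read for *Htr4*, *Oprk1*, *Sstr1*, *Trhr*, and *Rxfp1*.

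*Npy1r* encodes the Y1 receptor of neuropeptide Y and couples to Gi/o. Its relative signal was -0.45 in L6b, -0.21 in L5, and 1.24 in L2/3 of association neurons, and -0.28 in L5 and 0.20 in L2/3 of callosal neurons. The 2 L2/3 arrays were above the 3 deep arrays, and association L2/3 was 2.06-fold above callosal L2/3. It was the only receptor at least 2-fold higher in association L2/3 than in each other array, against 2.34% of the compared genes. The GABAergic sum was 62.7 in association L2/3 and 63.8 in callosal L5, and *Sst* and *Pvalb* made up most of both. The GABAergic genes did not share a highest array. *Gad2* was highest in the same array as *Npy1r*, with 2.18 in association L2/3 and 0.25 to 1.0 in the others. *Pvalb* was highest there too, at 4.57 against -1.38 to 4.52, while *Sst* and *Vip* were highest in callosal L5, at 4.66 and 2.14. The part of such cells in the *Npy1r* result was not tested. The Y2 receptor gene *Npy2r* stayed between -1.48 and -0.98 and was highest in association L5.

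*Htr2a*, the gene of a Gq-coupled serotonin receptor of cortical pyramidal neurons, was lowest in L6b. Its relative signal was 1.29 in L6b, 2.25 in L5, and 2.42 in L2/3 of association neurons, and 2.73 in L5 and 2.32 in L2/3 of callosal neurons. L6b was 1.95-fold below the next array, and the other 4 arrays lay between 2.25 and 2.73. The difference fell short of 2-fold against association L5 and passed it against each of the others. With an L6b enrichment of -1.14, it was the lowest of the 31. The summed signal of glutamatergic marker genes was also lowest in L6b, 35.3 against 61.5 to 92.2 elsewhere, as was the GABAergic sum. Single glutamatergic genes differed, since *Camk2a* had 2.41 in L6b and 4.41 to 5.75 elsewhere, and *Neurod6* had 3.08 and 1.29 to 3.42. The part of either sum in the *Htr2a* result was not tested. The related *Htr2c* was dim and stood at -0.21 in association L6b and between -1.01 and -0.56 in the other arrays, so that it was highest where *Htr2a* was lowest.

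The other serotonin receptors differed less. *Htr1f*, which encodes a Gi/o-coupled receptor, had a relative signal of 1.66 in L6b, 1.27 in L5, and 0.67 in L2/3 of association neurons, and 0.95 in L5 and 0.95 in L2/3 of callosal neurons. Its L6b enrichment of 0.70 was the highest of the 31 receptors, and its span of 0.99 lay just short of 2-fold. As deposited, 7.46 in association L6b and 6.38 in association L2/3, it was past 2-fold. *Htr1a*, the gene of the inhibitory receptor that also serves as autoreceptor of serotonin neurons, had 0.73 in L6b, 1.04 in L5, and 0.88 in L2/3 of association neurons, and 1.11 in L5 and 0.70 in L2/3 of callosal neurons. It was higher in both L5 arrays than in the others. *Htr1b*, the gene of a receptor found on axon terminals, had 0.37 in L6b, 0.37 in L5, and 0.21 in L2/3 of association neurons, and 0.40 in L5 and 0.19 in L2/3 of callosal neurons. Both L2/3 arrays were the lowest. *Htr5a*, the gene of another Gi/o-coupled receptor, had 0.38 in L6b, 0.03 in L5, and 0.09 in L2/3 of association neurons, and 0.06 in L5 and 0.06 in L2/3 of callosal neurons. Of the Gs-coupled receptors, *Htr4* had 0.03 in L6b, 0.08 in L5, and 0.00 in L2/3 of association neurons, and 0.09 in L5 and 0.09 in L2/3 of callosal neurons. *Htr6* had 0.03 in L6b, -0.13 in L5, and -0.22 in L2/3 of association neurons, and -0.10 in L5 and -0.10 in L2/3 of callosal neurons. Both were close to the array median throughout, and *Htr1d* and *Htr7* stayed below the median with spans of 0.45 and 0.42. *Htr1d*, which the study cites among genes present in L6b/SP throughout development, had -0.04 in L6b and -0.49 to -0.19 in the others. *Htr7* had -0.41 in L6b and -0.83 to -0.57 in the others. Of the 10 serotonin receptors, 6 were highest in L6b, against 21.4% of all named genes, and 7 were so as deposited, against 28.4%. Lowest there was 1, *Htr2a*, on both scales, against 31.1% and 12.3%.

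All 4 listed dopamine receptors were highest in L6b, each by less than 1.5-fold over the next array. Of all named genes, 21.4% were highest in L6b, and 28.4% as deposited. *Drd3*, outside the list, had 0.32 in L6b and -0.24 to -0.10 in the others. Deposited values were identical on 3 of the other arrays for *Drd1*, at 6.2, and for *Drd2*, at 5.59. *Drd1*, the gene of the D1 receptor, which raises cyclic AMP, had a relative signal of 0.86 in L6b, 0.43 in L5, and 0.21 in L2/3 of association neurons, and 0.46 in L5 and 0.46 in L2/3 of callosal neurons. *Drd5*, of the same class, had 0.12 in L6b, -0.24 in L5, and -0.66 in L2/3 of association neurons, and -0.02 in L5 and -0.21 in L2/3 of callosal neurons. The order was similar in both, with association L6b at the top and association L2/3 at the bottom. Of the inhibitory D2 class, *Drd2* had 0.11 in L6b, -0.18 in L5, and -0.42 in L2/3 of association neurons, and -0.15 in L5 and -0.15 in L2/3 of callosal neurons. *Drd4* had 0.41 in L6b, 0.09 in L5, and -0.15 in L2/3 of association neurons, and 0.13 in L5 and 0.05 in L2/3 of callosal neurons. These too were highest in association L6b and lowest in association L2/3. The share of all named genes that were lowest in association L2/3 was not counted. Receptors of other ligands were lowest there too, among them *Htr1f*, *Htr6*, *Oprl1*, *Sstr4*, and *Rxfp1*. The L6b enrichments were 0.47 for *Drd1*, 0.40 for *Drd5*, 0.38 for *Drd4*, and 0.34 for *Drd2*, and the genes are not independent replicates.

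Of the remaining receptors, *Crhr1*, the gene of the receptor of corticotropin-releasing hormone, was above the median in all arrays and nearly level, at 1.17 in L6b, 1.27 in L5, and 1.39 in L2/3 of association neurons, and 1.13 in L5 and 1.42 in L2/3 of callosal neurons. *Hcrtr1* and *Hcrtr2* encode the orexin receptors. *Hcrtr1* had 0.17 in L6b, 0.01 in L5, and 0.26 in L2/3 of association neurons, and 0.23 in L5 and 0.23 in L2/3 of callosal neurons. *Hcrtr2* was at -1.05 to -0.50, highest in association L5 and not in L6b. The adrenoceptor gene *Adra2c* had -0.06 in L6b, -0.08 in L5, and 0.03 in L2/3 of association neurons, and 0.11 in L5 and -0.04 in L2/3 of callosal neurons, and the dim *Adra1b* spanned 0.13. Neither set L6b apart. *Ntsr1*, known as a marker of L6 corticothalamic neurons, was dim, at -0.29 in association L6b and at -0.71 to -0.46 in the others. The median over 6 other such markers, listed for L6a, was 0.88 in association L6b and 0.04 to 0.23 elsewhere. Of these, *Tle4* alone was at least 2-fold higher there than in each other array, at 2.91 against -0.28 to 0.07. *Tbr1* was instead lowest in association L6b, at 3.6 against 4.12 to 4.36. *Trhr*, the gene of the thyrotropin-releasing hormone receptor, stayed between -1.79 and -1.49.
*Rxfp1*, which encodes a relaxin receptor, had a relative signal of -0.21 in L6b, -0.62 in L5, and -1.37 in L2/3 of association neurons, and -0.03 in L5 and -1.14 in L2/3 of callosal neurons. The 3 deep arrays were above both L2/3 arrays, in values that all lay below the median.

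The array of L6b was then set against the rest for all 31 receptors. None lay above all other arrays there by 2-fold or more, which 1.26% of the compared genes did, and none lay below all of them by as much, which 2.82% did. With 1.5-fold as the limit, *Htr2a* lay below all others and none lay above. By any size, 13 of 31 were highest in L6b, against 21.4% of all named genes, and 14 were so as deposited, against 28.4%. Counted as lowest in L6b were 6, against 31.1%, and 4 as deposited, against 12.3%. The L6b median was the highest of the 5, so a value equal on all arrays as deposited is lowest in L6b after subtraction. The median L6b enrichment was 0.08 over the 31 receptors and -0.05 over all named genes. It was 0.05 over the 20 that reached the median, and -0.49 over the 7 that reached the 75th percentile of an array, so its sign turned with the filter. Both filters let in receptors through the array in which they are high. *Htr6*, *Drd2*, *Drd5*, and *Oprm1* reached the median in L6b alone. *Oprl1* reached the 75th percentile in association L5 alone and *Npy1r* in association L2/3 alone. The filtered medians are therefore no support for a difference of L6b. By coupling, 13 of 17 Gi/o-coupled, 2 of 7 Gq-coupled, and 5 of 7 Gs-coupled receptors reached the array median, against 63.4% of all named genes. The median L6b enrichment of these groups was 0.03, 0.07, and 0.24. Differences between the coupling groups were not tested.

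**Figure D3:**
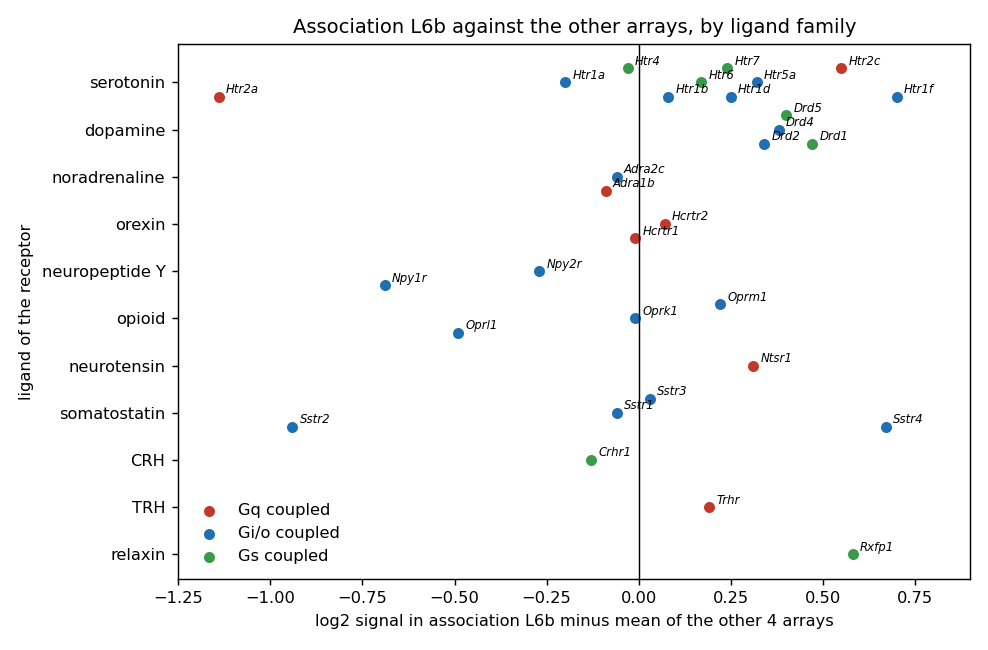
L6b enrichment in log2, the L6b value less the average over the remaining 4 arrays (horizontal axis) of the 31 receptor genes, grouped by ligand (vertical axis) and colored by the G protein they couple to, 1 point per gene. The 4 listed dopamine receptors lie between 0.34 and 0.47, and *Htr2a* (-1.14) and *Sstr2* (-0.94) lie farthest to the left.

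Pairs of arrays were compared next. Between association L6b and association L5, 2 receptors were at least 2-fold apart, against 10.7% of the compared genes. These were *Oprl1* (-2.04) and *Sstr2* (-1.72), both lower in L6b. Between association L6b and association L2/3, *Npy1r* (-1.69) and *Htr2a* (-1.13) were lower and *Sstr4* (1.18) and the dim *Rxfp1* (1.16) higher in L6b, against 13.4%. The median over the 31 receptors was 0.05 in the first comparison and 0.15 in the second, and over the 7 that reached the 75th percentile it was -0.24 and -0.22.
Association and callosal neurons of the same layer were at least 2-fold apart in 1 receptor per layer. In L5 it was *Oprl1* (1.98), against 8.46% of the compared genes, and in L2/3 it was *Npy1r* (1.04), against 8.55%. Both were higher in association neurons, and each was close to level in the other layer, with -0.13 for *Oprl1* in L2/3 and 0.07 for *Npy1r* in L5. *Sstr2* and *Sstr4* were higher in association L5 than in callosal L5 by 0.91 and 0.85, and the differences in L2/3 were 0.45 and -0.05. The median over the 31 receptors was -0.03 in both layers.
Between L5 and L2/3, association neurons were at least 2-fold apart in *Oprl1* (2.18), *Sstr4* (1.42), and *Npy1r* (-1.45), against 10.8%, and callosal neurons in *Rxfp1* alone (1.11), against 8.6%. In callosal neurons the difference of *Sstr4* was 0.52, that of *Npy1r* was -0.48, and that of *Oprl1* was 0.07. Comparisons that share an array are not independent of each other.

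**Figure D4:**
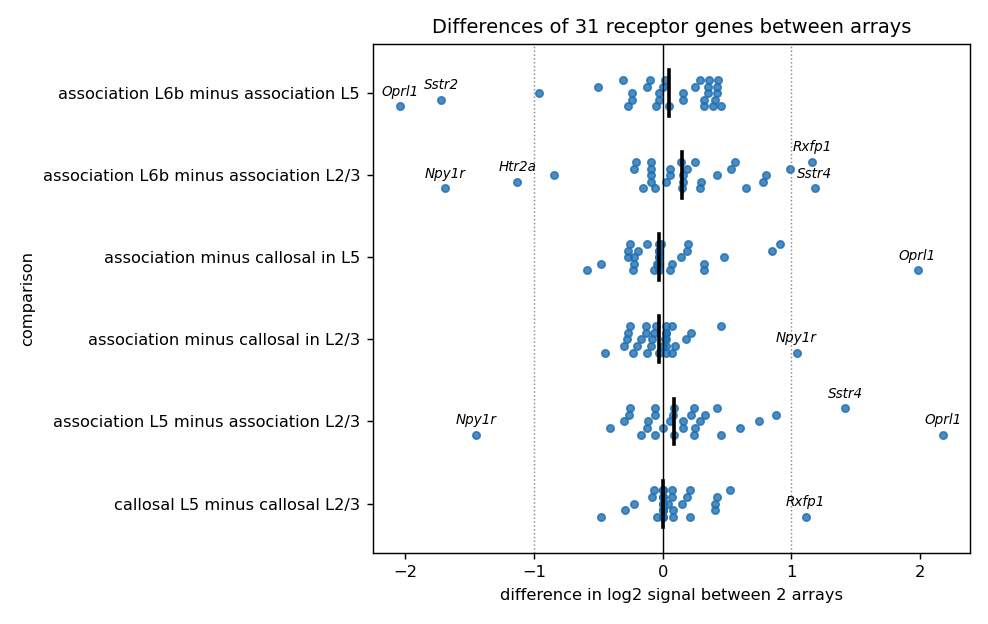
Difference in log2 signal (horizontal axis) of the 31 receptor genes between 2 arrays, for 6 pairs (vertical axis), 1 point per gene, with black bars at the medians and dotted lines at a 2-fold difference. Points past 2-fold belong to *Oprl1*, *Npy1r*, *Sstr2*, *Sstr4*, *Htr2a*, and *Rxfp1*, and *Oprl1* has the largest difference, 2.18 between L5 and L2/3 of association neurons.

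Receptors of these ligand classes outside the list were tallied in the same way. Over all named genes, 63.4% reached the median of some array, and 29.5% of those spanned at least 2-fold. Of 10 further monoamine receptors with a probe set, 5 reached the array median and 1 of these 5 spanned at least 2-fold, the histamine H3 receptor gene *Hrh3*, with 0.55 in L6b, 1.33 in L5, and 0.29 in L2/3 of association neurons, and 0.61 in L5 and 0.44 in L2/3 of callosal neurons. *Hrh3* was thus highest in association L5, as were *Oprl1* and *Sstr2*. Of 37 further neuropeptide receptors, 18 reached the median. Of these 18, 1 spanned at least 2-fold, *Vipr1*, the gene of a receptor of vasoactive intestinal peptide, with 2.09 in callosal L5 and 0.82 to 1.17 in the others. Below the median in all arrays, the relaxin family receptor gene *Rxfp2* spanned 1.14 log2. In neither list did L6b lie 2-fold or more above or below all other arrays.

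The genes of the peptide ligands were set beside those of their receptors. Of 14 ligand genes, 12 reached the median, against 63.4% of all named genes. Of these 12, 5 spanned at least 2-fold, against 29.5% of the compared genes. *Crh* had 3.32 in association L6b and -0.09 to 0.86 in the others, while its receptor gene *Crhr1* spanned 0.29. *Trh* had 2.51 in association L6b and -0.14 to 0.20 in the others, while *Trhr* was below the median in all. *Penk*, the gene of the enkephalin precursor, had 0.08 in L6b, 1.69 in L5, and 3.95 in L2/3 of association neurons, and 1.72 in L5 and 1.92 in L2/3 of callosal neurons. It was highest in the same array as *Npy1r*, a receptor gene of another ligand. *Npy* itself had 2.40 in L6b, 4.35 in L5, and 4.07 in L2/3 of association neurons, and 1.65 in L5 and 4.01 in L2/3 of callosal neurons, an order other than that of *Npy1r*. *Sst*, also counted among the GABAergic marker genes, was lowest in L6b, at 2.45 against 3.78 to 4.66 in the others. Of its receptor genes, *Sstr2* was lowest in L6b too and *Sstr4* was not.

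Downstream of the receptors, 10 of 11 G protein alpha genes and all 14 beta and gamma genes reached the array median, against 63.4% of all named genes. *Gnal*, the gene of the stimulatory alpha subunit of olfactory and striatal neurons, had 2.41 in L6b, -0.42 in L5, and 2.30 in L2/3 of association neurons, and 2.15 in L5 and 0.04 in L2/3 of callosal neurons. It was lowest in the array where *Oprl1* and *Sstr2* were highest. *Gng12*, a gamma subunit gene, was higher in L6b than in every other array by 2-fold or more. It had 5.04 in L6b, 2.41 in L5, and 1.17 in L2/3 of association neurons, and 3.66 in L5 and 1.27 in L2/3 of callosal neurons. *Gng4* was highest in association L5, with 3.73 there and 1.40 to 2.15 in the others. The receptor kinase gene *Grk3* had 0.95 in association L6b and -0.65 to -0.33 in the others, and the arrestin gene *Arrb1* had 0.49 in association L6b and 0.61 to 2.37 in the others. *Kcnj3*, which encodes a potassium channel subunit opened by Gi/o-coupled receptors, had 1.58 in association L5 and 2.67 to 3.04 in the others. The phospholipase C gene *Plcb4* had 3.89 in association L2/3 and 1.54 to 2.61 in the others, and was lowest in L6b, as was *Htr2a*.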

How the data were processed

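Neurons of 5 groups were measured on 5 arrays, 1 per group, from RNA amplified with the Ovation Pico WTA System. The deposited table holds log2 values of 35556 probe sets, made by the authors with Affymetrix Expression Console. Its version and its summarisation method were "not given in the sources used here". That values are log2 was read from their range, 1.11 to 14.2. A platform annotation gave 1 symbol to 21789 probe sets, and each gene was represented by the probe set with the highest mean (each receptor had 1). Array medians were subtracted. Genes at or above the median in at least 1 array were compared, and 2-fold is a rule of size, not a test. The members, the gene lists, and the rules were chosen with earlier results of these data known. All members could be named, with values in every array for those at or above the median, and of each other list up to 4 compared genes with the largest span, not all of which are printed. Alternatives were other scalings, filters, fold limits, mean over probe sets, and leaving out arrays. Start windows came from RefSeq. Steps were tested on simulated data and run in Python 3.11.15 with pandas 2.3.3.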

Additional observations from a re-analysis of the deposited data

How the results depend on the processing

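No paired analysis was possible because each group has 1 array and no test was run. The number of arrays limits the precision of every value. With values as deposited, quantile normalization, or no filter, no median over the receptors moved by 0.3 log2 or more, and 6 receptors were at least 2-fold apart in each. The mean over probe sets gives the same values by construction, since each receptor has 1 probe set. With the filter raised to the 75th percentile of the array, 7 receptors were left in place of 20. Over these 7 the median L6b enrichment was -0.49 in place of 0.05. The medians of L6b minus association L5 and L6b minus association L2/3 were -0.24 and -0.22, that of association minus callosal in L5 was 0.32, and that of association L5 minus L2/3 was 0.60. This setting has fewer genes by construction.

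At 1.5-fold, 8 receptors had arrays apart and 1 lay lower in L6b than in all other arrays. At 4-fold, a limit chosen after seeing the data, 1 receptor, *Oprl1*, had arrays apart. Leaving out 1 array at a time gave 3 to 5 receptors at least 2-fold apart, a median L6b enrichment of 0.06 to 0.07, 0 to 1 receptors lower in L6b than in each remaining array, and 0 higher. Without association L5 that 1 receptor was *Htr2a*, and the L6b enrichment of *Oprl1* was 0.03 in place of -0.49. Without association L2/3 that of *Npy1r* was -0.35 in place of -0.69. Of 31 single enrichments, 5 changed sign under some alternative, and apart from *Oprl1* these had main sizes of at most 0.03.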
